A study of Homo sapiens with 12 samples.

Results

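The genes described here are 38 genes of the NRF2, glutathione, thioredoxin and NADPH systems, picked by gene symbol from a table of 78932 genes. All 38 were found in the table, and 37 passed the filter on low counts and were tested. MAFK, a small MAF protein, was too low to test. The cells were THP-1, an established line of human leukaemic monocytes, sequenced as 4 groups of 3 libraries each. NC cells had no treatment named in the labels. LPS cells received lipopolysaccharide and ATP, the study's model of pyroptosis, an inflammatory form of cell death. CE cells received LPS and ATP together with cyclosporin A, which inhibits calcineurin, and with eltrombopag, a thrombopoietin receptor agonist that also binds iron. CEL cells received these 4 agents and luspatercept, a trap for ligands of the TGF-beta family. LPS, CE and CEL therefore share LPS and ATP, and no group received a drug without them. Cyclosporin A and eltrombopag were always given together, so their separate shares in a change cannot be told apart. The sources used here give no doses or times, and the study used 1 cell line.

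NRF2, the product of NFE2L2, is a transcription factor that is held low in resting cells by KEAP1, an adaptor that delivers it for degradation. When oxidants or electrophiles modify KEAP1, NRF2 builds up, pairs with a small MAF protein and binds antioxidant response elements near its target genes, where BACH1 can act as a repressor. Its targets make glutathione, reduce quinones and carbonyls, recycle thioredoxin, remove peroxides and supply NADPH, the electron source for these reactions. Macrophages use the same NADPH both for the oxidative burst and for protection against it. NRF2 is controlled largely at the level of protein, which RNA-seq does not measure.

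The antioxidant response element has a core that can be written TGACNNNGC. This core, on either strand, was searched in the 250 bases before the start site of each gene in RefSeq promoter windows (GRCh38.p14), where 31 of the 38 members had at least 1 window. It was found in 9 of these 31 members (29%), and in 13.2% of all 27305 gene symbols in the table. There were 12 sites in these 9 members, since KEAP1, GSTO1 and TXNRD1 hold a pair each. For 8 of the members 1 site is shown, 30 bases long, since members holding the same core include genes that rose at every step and genes that passed no test. Capitals mark the core, each run is written 5′ to 3′ on the strand that reads TGAC, and that strand follows the coordinates. Among the sites shown, ME1 and GSTP1 hold the same core, which also contains TGACTCA, the AP-1 motif, GCLM and KEAP1 share another, and the other 4 differ in the middle bases NNN.
ME1 (malic enzyme), chr6:83431169-83431198, minus strand: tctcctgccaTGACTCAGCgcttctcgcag
GSTP1 (glutathione transferase), chr11:67583736-67583765, plus strand: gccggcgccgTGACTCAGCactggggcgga
TXNRD1 (thioredoxin reductase), chr12:104215670-104215699, plus strand: acacgggctaTGACTTCGCtgttgtcaccg
PGD (pentose phosphate enzyme), chr1:10398853-10398882, minus strand: gagcacctagaTGACATTGCcccggcgagg
GSTO1 (glutathione transferase), chr10:104254656-104254685, plus strand: ggcggagggaTGACTGAGCatttataactt
EPHX1 (epoxide hydrolase), chr1:225825266-225825295, plus strand: tgagattggcTGACTTGGCaggactgtgca
GCLM (glutathione synthesis), chr1:93909445-93909474, plus strand: ctggaagacaaTGACTAAGCagaaatcgta
KEAP1 (NRF2 adaptor), chr19:10502783-10502812, plus strand: gcaggtcaccaTGACTAAGCagagccgggc
A match describes the letters in this window and is not a measured binding site. Of the 9 members with the core, 6 rose in CE against LPS and 3 did not pass. Of the 22 tested members whose windows lack it, 12 rose, 3 fell and 7 did not pass. Of all tested genes 28.8% rose and 20.7% fell in that comparison, and a difference between members with and without the core was not tested.

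The 12 libraries held 17737213 to 23183429 estimated counts, with 21775 to 26123 genes detected. Libraries NC 3, LPS 1 and CE 2 stood apart from the other libraries of their groups, with a chi-square per degree of freedom of 38.1 to 147 against their group mates and 3.35 to 10.7 for all other pairs within a group. CE 2 also differed in base composition. Each gene's mean over its group was first subtracted on the log2 scale. In CE 2 the median of genes with a GC content of 54.9% or more then exceeded that of genes of 40.3% or less by 0.73. The values of -0.42 in CE 1 and -0.30 in CE 3 are tied to that of CE 2 by the subtraction. In the other groups this difference ran from -0.27 in CEL 3 to 0.31 in LPS 3. Of 9 monocytic markers, 6 exceeded 1 TPM (a share of all transcripts that takes their length into account) in NC and 8 in each other group. CD14, ITGAM and CEBPA were under that level in NC, and CEBPA in all groups. Of 16 markers of other cell types, 0 exceeded 1 TPM in any group, and their summed level was 0.06 to 2.26 TPM per library. In bulk RNA a change in the make-up of a culture and a change in RNA per cell cannot be told apart.

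On the scale of TPM, which allows genes to be compared, the members spanned a wide range. PRDX1, a peroxiredoxin that removes hydrogen peroxide, was the most abundant in every group, with a mean of 638 TPM in NC and 1046 TPM in LPS. TXN, the small redox protein thioredoxin, followed in NC at 522 TPM. At the other end, MAFK stayed between 0.0433 and 0.070 TPM as a group mean and MAFG between 0.193 and 0.433 TPM. NFE2L2 moved from 57.6 TPM in NC to 375 TPM in CEL, while KEAP1 lay between 8.22 and 14 TPM. For many members the deposited TPM of NC 3 and LPS 1 lay below their group mates, though scaled counts (CPM) were alike. NFE2L2 was at 65.4, 63.4 and 43.8 TPM in NC, beside 122, 114 and 118 CPM. In LPS it was at 110, 147 and 143 TPM, beside 259, 254 and 231 CPM. This lowers the TPM means of NC and LPS, so changes between groups were tested on counts.

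**Figure D1:**
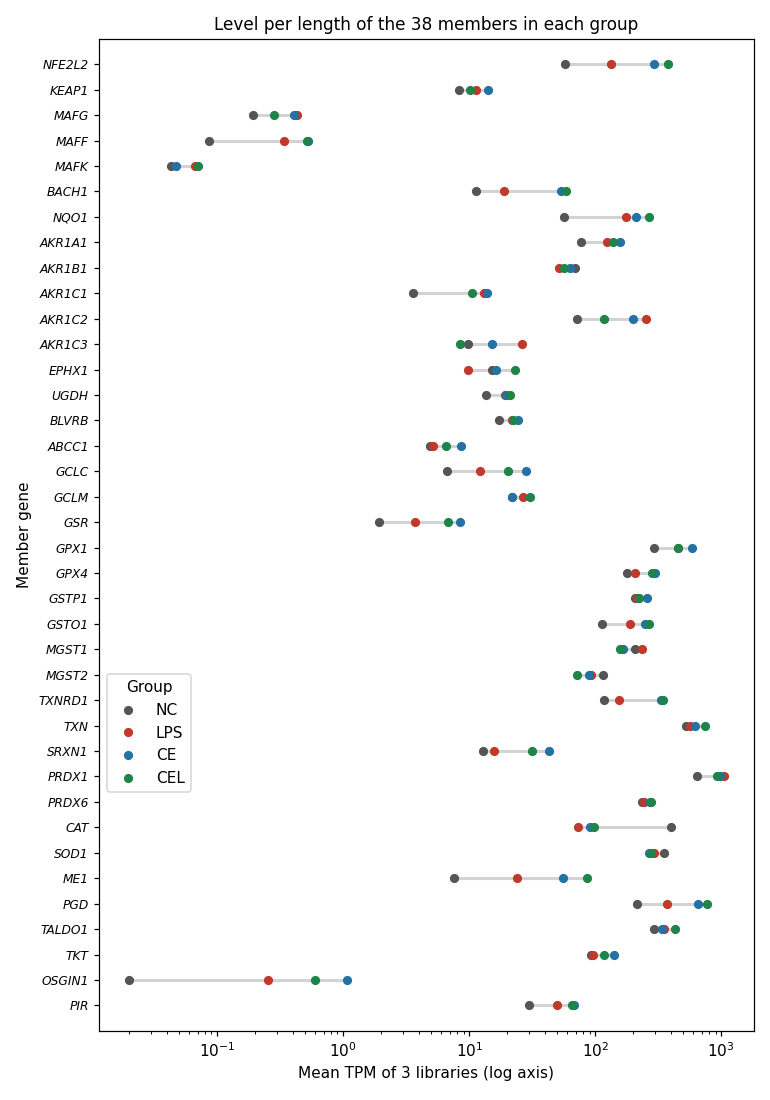
Mean TPM of each of the 38 members in the 4 groups (log axis, mean of 3 libraries, grey line from lowest to highest group mean), in order of role from regulators at the top to other targets at the bottom. PRDX1 is the most abundant member in each group, and the small MAF genes MAFG, MAFF and MAFK and OSGIN1 are the lowest.

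More members rose than fell in cells given LPS and ATP. Against NC, 16 of the 37 tested members rose in LPS, 5 fell and 16 did not pass an adjusted p of 0.05, where 45.9% of all 14065 tested genes were called (22.4% higher and 23.5% lower). A change is called here where the Benjamini-Hochberg adjusted p of edgeR's quasi-likelihood test is under 0.05, and its size is a log2 change ± an approximate standard error. The members' median change was 0.44 (log2), and that of all tested genes was -0.01. The groups did not overlap for 28 members, where 62.5% of all genes did not. The called members that rose by at least 2-fold were NFE2L2, MAFF, NQO1, AKR1C1, AKR1C2, AKR1C3 and ME1, and CAT fell by as much. Of all genes, 16.5% were called and changed by 2-fold or more. With upper-quartile scaling, which lowers the median of all genes by 0.111, 14 members rose and 7 fell, and the split of all genes moved from 3152 higher and 3306 lower to 2604 and 4387.

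More members also rose than fell where cyclosporin A and eltrombopag were added. In CE against LPS, 19 members rose, 3 fell and 15 did not pass, where 49.6% of all genes were called (28.8% higher and 20.7% lower). The median change of the members was 0.32 and that of all genes 0.08, and 21 members did not overlap between the groups, against 54.6% of all genes. In CEL against LPS, which uses the same LPS libraries, 15 members rose, 5 fell and 17 did not pass, where 55.9% of all genes were called (28.7% higher and 27.2% lower). The median was 0.17 for the members and -0.03 for all genes, and 27 members did not overlap, against 65.5% of all genes. The 8 called members that rose by at least 2-fold in CE were NFE2L2, BACH1, GCLC, GSR, TXNRD1, SRXN1, ME1 and OSGIN1. Of all genes, 14.5% were called and changed by as much. In CEL, the called members NFE2L2, BACH1, EPHX1, TXNRD1 and ME1 rose and AKR1C2 and AKR1C3 fell by at least 2-fold. Of all genes, 20.9% were called and changed by as much. Scaling mattered for the smaller changes. With upper-quartile factors, which lower the all-gene median by 0.174 in CE against LPS and by 0.135 in CEL against LPS, 13 members rose and 6 fell in CE, and 12 rose and 8 fell in CEL. With library size alone, the counts were 14 and 6 in CE and 13 and 7 in CEL. For all genes, the split in CE against LPS was 4057 higher and 2915 lower, 2945 and 4000 with upper-quartile factors and 3040 and 3833 with library size alone. In CEL against LPS it was 4039 and 3828, then 3294 and 4590 and, with library size alone, 3381 and 4383.

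Fewer members changed where luspatercept was added. In CEL against CE, 5 members rose (NFE2L2, NQO1, EPHX1, ME1 and TALDO1), 8 fell (AKR1A1, AKR1B1, AKR1C1, AKR1C2, AKR1C3, GPX1, GSTP1 and MGST2) and 24 did not pass, where 23.6% of all genes were called (8.78% higher and 14.8% lower). No called member changed by 2-fold, while 3.36% of all genes were called and changed by as much. OSGIN1, near the floor, differed by -1.09 and was not called (adjusted p = 0.379). The median was -0.15 for the members and -0.09 for all genes, and the groups did not overlap for 13 members, against 34.7% of all genes. None of these calls held under all 18 alternatives of processing: AKR1C2, AKR1C3 and ME1 lost theirs only with limma on the deposited TPM, and the other 10 also elsewhere.

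Over the comparisons with NC and with LPS, 8 members rose in LPS and rose again in both CE and CEL: NFE2L2, BACH1, NQO1, GSTO1, TXNRD1, ME1, PGD and PIR. Each of the 6 roles by which the members were sorted holds at least 1 of them. NFE2L2, BACH1, ME1 and PGD kept all 3 calls under all 18 alternatives of processing, and each of the others lost at least 1 call in some alternative. Of all 14065 tested genes, 8.47% rose in all 3 of these comparisons. All 3 use the same LPS libraries, as the first group in LPS against NC and as the second in the last pair. An error in the LPS level would therefore move the first change in the opposite direction to the last pair. AKR1C2 and AKR1C3 rose in LPS and fell in both drug groups, EPHX1 and CAT fell in LPS and rose in both, and 7 tested members passed none of these 3 tests, patterns that 4.28%, 5.45% and 26% of all genes showed. Against NC, 23 members were higher and 5 lower in CE, where 64% of all genes were called (34.6% higher and 29.4% lower). In CEL against NC, 23 were higher and 6 lower, where 67% of all genes were called (34% higher and 33% lower). The groups did not overlap for 27 members in CE against NC, where 67.1% of all genes did not, and for 31 in CEL against NC, where 75.8% did not.

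**Figure D2:**
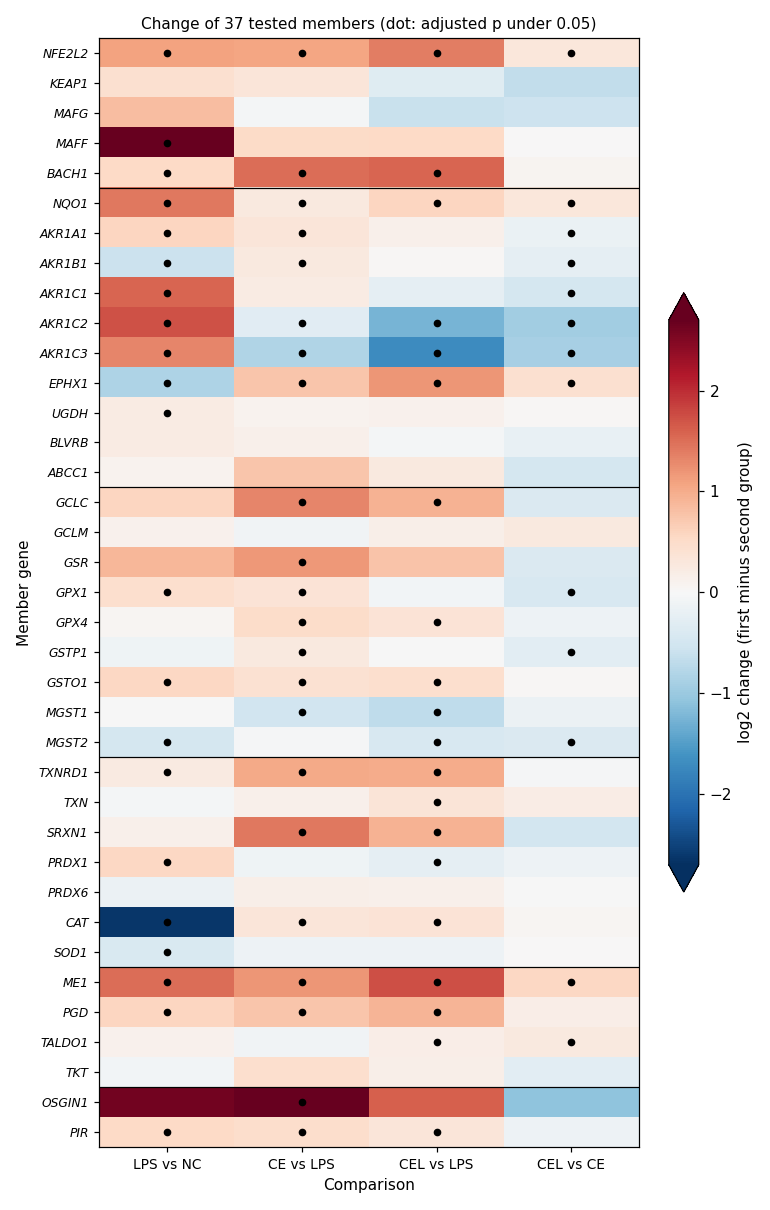
Log2 change of the 37 tested members (rows, in order of role, black lines between roles) in 4 comparisons (columns). Red is higher and blue lower in the first-named group, colours end at 2.7 in either direction, and a dot marks an adjusted p under 0.05. NFE2L2, NQO1 and ME1 are called higher in all 4 columns, and CAT is deep blue in LPS against NC.

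Levels by library are given in CPM, counts scaled to the size of each library, in the order of replicates 1, 2 and 3. Among the regulators, NFE2L2, which encodes NRF2 itself, was measured at 122, 114 and 118 CPM in NC, 259, 254 and 231 CPM in LPS, 549.6, 482 and 536 CPM in CE and 617, 635 and 679 CPM in CEL. Each group lay above the one before it without overlap. The NFE2L2 transcript rose by 1.08 ± 0.06 (adjusted p = 8.35e-08) in LPS, by 1.08 ± 0.06 (adjusted p = 1.12e-07) in CE against LPS and by a further 0.30 ± 0.06 (adjusted p = 0.00461) in CEL against CE. The gene lies on chr2:177227595-177392697 (GENCODE v29, minus strand) and overlaps AGPS on the opposite strand, whose reads cannot be told apart where counting ignores strand. It also overlaps AC019080.1 on the same strand, where strand cannot separate the reads. Same-strand overlaps were also annotated for BACH1 (LINC00189), GCLC (AL033397.1), SRXN1 (AL121758.1), MAFG (SIRT7) and OSGIN1 (AC009119.2). BACH1, the repressor that competes with NRF2 at the same elements, was measured at 54.9, 47.8 and 52.5 CPM in NC, 79.9, 77 and 66.9 CPM in LPS, 222, 189.5 and 224 CPM in CE and 208, 228 and 231 CPM in CEL. All CE and CEL libraries lay far above all LPS libraries, and CE and CEL overlapped. BACH1 rose by 0.53 ± 0.09 (adjusted p = 0.000445) in LPS and by 1.51 ± 0.09 (adjusted p = 1.1e-07) in CE against LPS, and differed by 0.07 ± 0.09 (adjusted p = 0.613) between CEL and CE.

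KEAP1, the adaptor that marks NRF2 for degradation, was measured at 6.23, 9.77 and 9.19 CPM in NC, 9.28, 9.61 and 15.2 CPM in LPS, 6.2, 30.2 and 6.5 CPM in CE and 12.7, 8.62 and 5.75 CPM in CEL. The groups overlapped in every comparison, and CE 2 was the highest of all 12 libraries while CE 1 and CE 3 were near the lowest. KEAP1 passed no test (CE against LPS 0.33 ± 0.55, adjusted p = 0.656). Without CE 2 its change in CE was -0.83 (adjusted p = 0.0506), and -0.97 (adjusted p = 0.0366) with NC 3 and LPS 1 left out as well, so its direction in CE rests on that library. The small MAF genes, partners of NRF2 on DNA, were near the floor of detection. MAFG was measured at 0.748, 1.0 and 0.742 CPM in NC, 1.23, 1.04 and 2.18 CPM in LPS, 0.541, 3.13 and 0.626 CPM in CE and 1.6, 0.852 and 0.43 CPM in CEL. LPS 3 and CE 2 were the highest of these, and the groups overlapped except LPS over NC. MAFG passed no test in CE against LPS (-0.05 ± 0.64, adjusted p = 0.958), while without CE 2 its change there was -1.33 (adjusted p = 0.0475).

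MAFF, another small MAF, was measured at 0.125, 0 and 0 CPM in NC, 0.442, 0.237 and 1.02 CPM in LPS, 0.246, 1.93 and 0.289 CPM in CE and 1.08, 1.1 and 0.269 CPM in CEL. All LPS libraries were above all NC libraries. With 37 counts in LPS and 3 in NC the ratio was 12.2, with an exact 95% interval of 3.87 to 62 that covers counting error only. The call in LPS (adjusted p = 0.0465) was lost in 9 of the 17 alternatives that gave it a value, among them the batch number as a block (adjusted p = 0.0611) and the fits lacking NC 2, NC 3, LPS 1 or LPS 3. MAFK was measured at 0.0415, 0 and 0.0571 CPM in NC, 0.0491, 0.142 and 0.133 CPM in LPS, 0.0984, 0.144 and 0.0964 CPM in CE and 0.39, 0.10 and 0 CPM in CEL, which is 2 counts in NC, 7 in LPS, 7 in CE and 11 in CEL, and was not tested.

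NQO1, a quinone reductase that is widely used as a readout of NRF2, was measured at 64, 58.9 and 62 CPM in NC, 169, 169 and 159 CPM in LPS, 219, 180.1 and 199 CPM in CE and 242, 249.7 and 253 CPM in CEL. LPS lay above NC and CEL above CE without overlap, and all CE libraries were above all LPS libraries, CE 2 by the least. NQO1 rose by 1.43 ± 0.07 (adjusted p = 9.29e-09) in LPS, by 0.27 ± 0.06 (adjusted p = 0.00445) in CE against LPS and by 0.32 ± 0.06 (adjusted p = 0.00413) in CEL against CE. The step from LPS to CE was the least steady of these, since its call was lost in 10 of 18 alternatives with an adjusted p of up to 0.458.

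The aldo-keto reductases of the AKR1C family, which reduce ketosteroids and lipid aldehydes, took a different course. AKR1C2 was measured at 61.9, 58.7 and 57.9 CPM in NC, 200.3, 206 and 184 CPM in LPS, 169, 149.6 and 158 CPM in CE and 77.3, 83.5 and 86.6 CPM in CEL. LPS was the highest group and CEL lay between NC and CE, with no overlap between any groups. It rose by 1.73 ± 0.06 (adjusted p = 1.33e-09) in LPS and fell by 0.31 ± 0.06 (adjusted p = 0.00139) in CE and by 1.26 ± 0.06 (adjusted p = 2.29e-08) in CEL, both against LPS. AKR1C3 was measured at 9.05, 8.31 and 8.11 CPM in NC, 21.2, 22.5 and 19.7 CPM in LPS, 13, 11.7 and 11.6 CPM in CE and 5.71, 6.96 and 6.77 CPM in CEL. Here CEL was below NC in every library. AKR1C3 rose by 1.31 ± 0.10 (adjusted p = 8.41e-07) in LPS, then fell by 0.80 ± 0.10 (adjusted p = 3.66e-05) in CE and by 1.70 ± 0.10 (adjusted p = 8.38e-08) in CEL. Between CEL and CE, AKR1C2 fell by 0.95 ± 0.06 (adjusted p = 2.65e-06) and AKR1C3 by 0.90 ± 0.10 (adjusted p = 9.63e-05).

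AKR1C1 was measured at 4.28, 4.11 and 3.88 CPM in NC, 11.4, 13.8 and 11.5 CPM in LPS, 15.5, 12.8 and 14.5 CPM in CE and 9.09, 11 and 10.7 CPM in CEL. It was high in all 3 groups with LPS and ATP, and CE and LPS overlapped. It rose by 1.58 ± 0.12 (adjusted p = 8.58e-07) in LPS, did not pass in CE (0.22, adjusted p = 0.14) or CEL (-0.25, adjusted p = 0.0835) against LPS, and fell by 0.47 ± 0.11 (adjusted p = 0.0119) in CEL against CE, a call lost in 8 of 18 alternatives, including the fits without CE 1, CE 3, CEL 1 or CEL 2. AKR1C1 and AKR1C2 are near-identical and neighbours on chromosome 10, so the split of reads between them is uncertain. The sum over AKR1C1, AKR1C2 and AKR1C3 does not depend on that split among them. It was 72.1 ± 2.80 CPM in NC (SD, n = 3), 230.3 ± 13.7 in LPS, 185 ± 11.7 in CE and 99.2 ± 6.27 in CEL, and the groups did not overlap.

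EPHX1, the microsomal epoxide hydrolase, was measured at 18.6, 21.6 and 20.4 CPM in NC, 11, 11.2 and 11.6 CPM in LPS, 18, 21.6 and 17.4 CPM in CE and 27.3, 25.7 and 23.7 CPM in CEL. LPS was the lowest group and CEL the highest, and CE overlapped with NC. EPHX1 fell by 0.84 ± 0.10 (adjusted p = 2.95e-05) in LPS and rose by 0.75 ± 0.10 (adjusted p = 5.69e-05) in CE and 1.18 ± 0.10 (adjusted p = 1.15e-06) in CEL against LPS. CEL was above CE by 0.43 ± 0.10 (adjusted p = 0.00744). It overlaps TMEM63A on the opposite strand. Of the other detoxification genes, AKR1A1, an aldehyde reductase, rose by 0.58 ± 0.06 (adjusted p = 1.22e-05) in LPS and 0.32 ± 0.06 (adjusted p = 0.00096) in CE, and AKR1B1, aldose reductase, fell by 0.58 ± 0.07 (adjusted p = 4.05e-05) in LPS and rose by 0.27 ± 0.07 (adjusted p = 0.00829) in CE. Both fell in CEL against CE, by 0.19 ± 0.06 (adjusted p = 0.0439) and 0.23 ± 0.07 (adjusted p = 0.0337), but these calls were lost in 18 and 16 of 18 alternatives, the batch block among them (adjusted p = 0.056 and 0.0561). The rise of AKR1B1 in CE was lost in 12 of 18, among them the GC offset, DESeq2 and the fits without LPS 2, CE 1 or CE 3, and that of AKR1A1 in 6. AKR1B1 has 7 annotated pseudogenes that can share its reads. UGDH, which makes UDP-glucuronate, passed in LPS against NC alone of the 4 tests (0.23 ± 0.07, adjusted p = 0.0191), a call lost in 12 of 18 alternatives, DESeq2 and the fits without NC 2, NC 3, LPS 1 or LPS 2 among them. BLVRB, biliverdin reductase B, lay between 17.1 and 24.5 TPM as a group mean and ABCC1, an exporter of glutathione conjugates, between 4.88 and 8.52 TPM, and neither passed any of these 4.

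**Figure D3:**
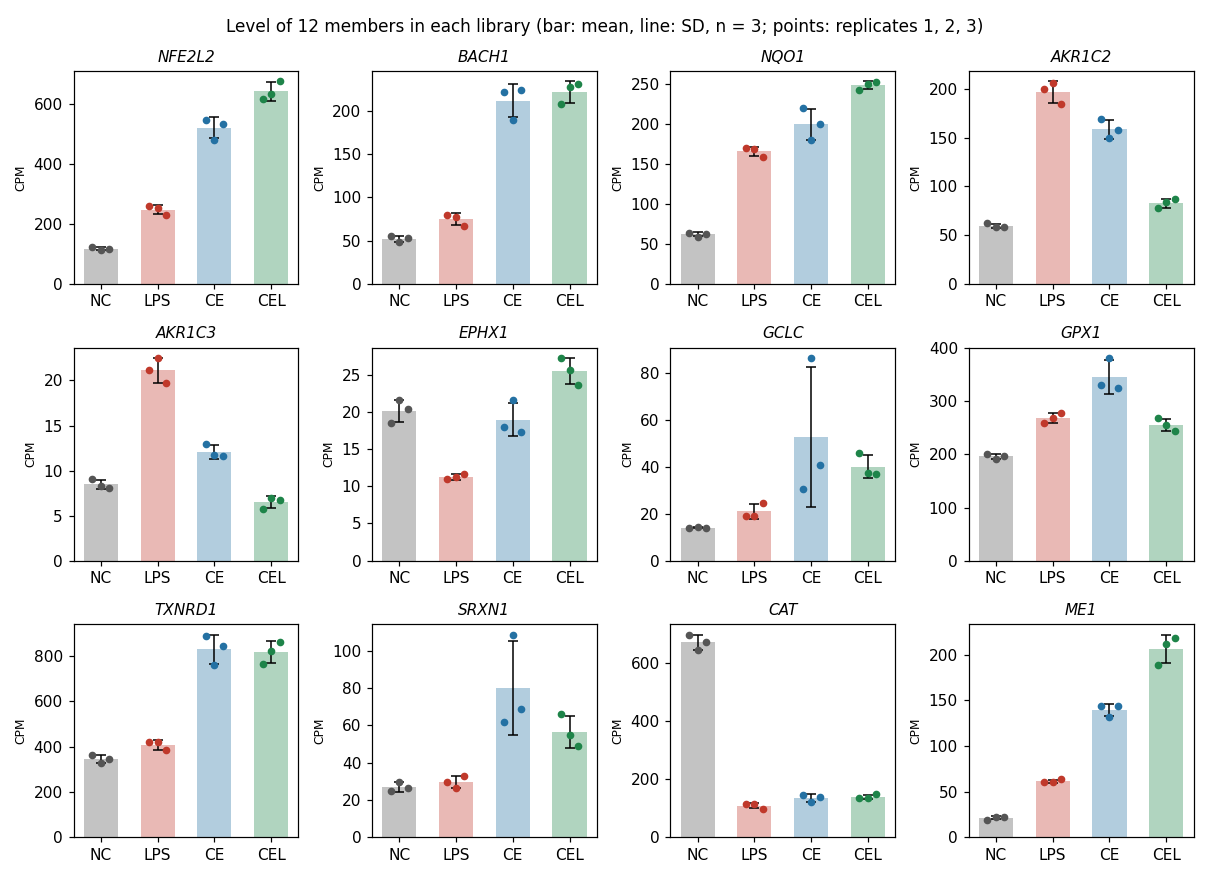
CPM of 12 members in each library (points, replicates 1 to 3 from left to right), with the mean as a bar and the SD as a line (n = 3). NFE2L2 and ME1 step up from group to group, AKR1C2 and AKR1C3 are highest in LPS, CAT is high in NC alone, and 1 CE point stands far above the others in GCLC and SRXN1.

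In glutathione synthesis, GCLC and GCLM encode the subunits of glutamate-cysteine ligase, the first enzyme of the pathway. GCLC, the catalytic subunit, was measured at 14.1, 14.2 and 14 CPM in NC, 19.1, 19.2 and 24.7 CPM in LPS, 30.5, 86.6 and 41 CPM in CE and 45.9, 37.6 and 37 CPM in CEL. All CE and CEL libraries were above all LPS libraries, and CE 2 was more than any other library. GCLC did not pass in LPS against NC (0.57 ± 0.31, adjusted p = 0.154) and rose by 1.33 ± 0.30 (adjusted p = 0.00338) in CE and 0.94 ± 0.30 (adjusted p = 0.0203) in CEL against LPS. Without CE 2 the rise in CE was 0.78 (adjusted p = 0.000822). The call in CEL was lost in 5 alternatives, among them the fit without LPS 1. GCLM, the modifier subunit, was measured at 68.7, 73.6 and 70.3 CPM in NC, 79.8, 81.4 and 69 CPM in LPS, 57, 88.9 and 68.1 CPM in CE and 92, 81.5 and 81.9 CPM in CEL. CE 1 was the lowest library and CEL 1 the highest, and LPS overlapped with NC and with CE. GCLM passed none of the 4 tests (CE against LPS -0.10 ± 0.13, adjusted p = 0.556). Without CE 2 it was lower in CE by a log2 value of -0.28 (adjusted p = 0.0267) and higher in CEL against CE by 0.44 (adjusted p = 0.00608).

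GSR, which returns oxidised glutathione to its reduced form with NADPH, was measured at 3.53, 4.48 and 4.8 CPM in NC, 7.66, 7.76 and 8.26 CPM in LPS, 11.2, 29.9 and 12.3 CPM in CE and 17.7, 11.4 and 11.4 CPM in CEL. All CE and CEL libraries exceeded all LPS libraries, and CE 2 was far above the rest. In LPS against NC the difference of 0.89 ± 0.35 (adjusted p = 0.0558) did not pass, although it did in 6 of 18 alternatives, and in CE against LPS GSR rose by 1.17 ± 0.33 (adjusted p = 0.0126). Without CE 2 that rise was 0.58 (adjusted p = 0.0244), and with NC 3 and LPS 1 also left out it was 0.55 and did not pass (adjusted p = 0.0548).

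GPX1, the main cytosolic glutathione peroxidase, was measured at 201, 191 and 196 CPM in NC, 259, 269 and 278 CPM in LPS, 331, 382 and 325 CPM in CE and 268, 255 and 245 CPM in CEL. CE lay above all other groups, while CEL overlapped with LPS. It rose by 0.45 ± 0.06 (adjusted p = 9.9e-05) in LPS and 0.36 ± 0.06 (adjusted p = 0.000431) in CE against LPS, and fell by 0.43 ± 0.06 (adjusted p = 0.000469) in CEL against CE. With the GC offset the calls in LPS (adjusted p = 0.311) and in CEL against CE (adjusted p = 0.276) were lost, while that in CE held (adjusted p = 0.0427). The call of GPX1 in CE against LPS was lost in 4 of 18 alternatives, library size alone and limma on the deposited TPM. GPX4, which reduces lipid peroxides in membranes and restrains ferroptosis, was measured at 91.4, 95.7 and 88.3 CPM in NC, 89.1, 95.3 and 100.4 CPM in LPS, 141, 138 and 122 CPM in CE and 127, 119 and 119.7 CPM in CEL. NC and LPS overlapped, and all CE and CEL libraries were above them. GPX4 rose by 0.49 ± 0.06 (adjusted p = 6.29e-05) in CE and 0.36 ± 0.06 (adjusted p = 0.00055) in CEL against LPS, and differed by 0.05 ± 0.06 (adjusted p = 0.581) between LPS and NC. GPX1 and GPX4 are selenoproteins, and GPX1 has 2 annotated pseudogenes.

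The glutathione transferases and their membrane relatives moved in both directions. GSTO1, an omega-class transferase, rose by 0.57 ± 0.08 (adjusted p = 0.000105) in LPS, 0.41 ± 0.08 (adjusted p = 0.000953) in CE and 0.45 ± 0.08 (adjusted p = 0.000405) in CEL, the last pair against LPS. GSTP1, the pi-class transferase, did not pass in LPS against NC (-0.11, adjusted p = 0.135), rose by 0.27 ± 0.06 (adjusted p = 0.00209) in CE against LPS and fell by 0.28 ± 0.06 (adjusted p = 0.00445) in CEL against CE. MGST1, a microsomal transferase and peroxidase, did not pass in LPS against NC (adjusted p = 0.966) and fell by 0.52 ± 0.08 (adjusted p = 0.000158) in CE and 0.69 ± 0.08 (adjusted p = 1.34e-05) in CEL. MGST2, which can make leukotriene C4, fell by 0.48 ± 0.09 (adjusted p = 0.000945) in LPS and by a further 0.43 ± 0.09 (adjusted p = 0.00146) in CEL against LPS. Alternatives lost the GSTP1 call in 7 of 18 cases for CE and 9 for CEL against CE. Of the 9 glutathione genes, 6 rose and 1 fell in CE against LPS, where 28.8% of all genes rose and 20.7% fell, and 3 fell in CEL against CE, where 14.8% of all genes fell.

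In the thioredoxin system, TXNRD1, the selenoenzyme that reduces thioredoxin with NADPH, was measured at 362, 329 and 344 CPM in NC, 423, 420.3 and 385 CPM in LPS, 887, 761 and 845 CPM in CE and 767, 824 and 865 CPM in CEL. CE and CEL overlapped with each other and lay above every LPS library. The small rise in LPS (0.24 ± 0.07, adjusted p = 0.0128) was lost in 10 of 18 alternatives, including the fits without NC 2, NC 3, LPS 1 or LPS 2. The rise in CE (1.02 ± 0.07, adjusted p = 3.66e-07) was kept under all 18, as was that in CEL (1.00 ± 0.07, adjusted p = 2.85e-07). TXN, its substrate, was measured at 275, 262 and 275 CPM in NC, 258, 272 and 251 CPM in LPS, 315, 254 and 290.4 CPM in CE and 301, 349 and 342 CPM in CEL. NC, LPS and CE overlapped. TXN did not pass in LPS (-0.05 ± 0.08, adjusted p = 0.606) or CE (0.14 ± 0.08, adjusted p = 0.168) and rose by 0.35 ± 0.08 (adjusted p = 0.00253) in CEL against LPS, with 5 alternatives losing that call. TXN has 7 annotated pseudogenes.

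SRXN1, sulfiredoxin, which repairs over-oxidised peroxiredoxins, was measured at 24.8, 29.7 and 26.2 CPM in NC, 29.9, 26.6 and 32.7 CPM in LPS, 62, 109 and 68.8 CPM in CE and 66, 54.8 and 49.1 CPM in CEL. NC and LPS overlapped, and every CE and CEL library was above both. SRXN1 rose by 1.42 ± 0.19 (adjusted p = 8.45e-05) in CE and 0.93 ± 0.19 (adjusted p = 0.0015) in CEL against LPS. Without CE 2, the highest library, the rise in CE was 1.15 (adjusted p = 1.8e-05). Of the peroxiredoxins, PRDX1 rose by 0.57 ± 0.07 (adjusted p = 8.27e-05) in LPS and fell by 0.25 ± 0.07 (adjusted p = 0.0133) in CEL against LPS, and PRDX6, a peroxiredoxin that uses glutathione, passed none of the 4 tests, with changes from -0.15 to 0.15. The fall of PRDX1 was lost in 8 of 18 alternatives.

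CAT, catalase, which breaks down hydrogen peroxide without NADPH as its electron source, was measured at 699, 647 and 674 CPM in NC, 113, 115 and 99.1 CPM in LPS, 147, 122 and 139 CPM in CE and 135, 137 and 149 CPM in CEL. All NC libraries were several times above all others, and CE and CEL stayed close to LPS. CAT fell by 2.62 ± 0.08 (adjusted p = 2.2e-10) in LPS, the deepest fall of any tested member in the 4 main comparisons, and rose by 0.32 ± 0.08 (adjusted p = 0.00437) in CE and 0.36 ± 0.08 (adjusted p = 0.0016) in CEL against LPS. Between CEL and NC the change was -2.26 ± 0.08 (adjusted p = 3.71e-10). The rise in CE was lost in 6 of 18 alternatives, among them upper-quartile factors and the fits without CE 1 or CE 3, and that in CEL against LPS in 2. SOD1, the cytosolic superoxide dismutase, fell by 0.42 ± 0.08 (adjusted p = 0.000843) in LPS, a call lost with the GC offset (adjusted p = 0.0779), and differed by -0.15 in CE (adjusted p = 0.132) and -0.15 in CEL (adjusted p = 0.125).

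Among the NADPH suppliers, ME1, cytosolic malic enzyme, was measured at 19.5, 22.7 and 22.4 CPM in NC, 60.7, 60.4 and 63.4 CPM in LPS, 144, 132 and 144 CPM in CE and 188, 211 and 219 CPM in CEL. The 4 groups followed each other upward with no overlap. ME1 rose by 1.51 ± 0.07 (adjusted p = 1.57e-08) in LPS and by 1.18 ± 0.07 (adjusted p = 1.45e-07) in CE against LPS, and by 0.56 ± 0.07 (adjusted p = 0.000207) in CEL against CE. Between NC and CEL the change was 3.26 ± 0.08 (adjusted p = 1.78e-11). PGD, which yields NADPH in the oxidative arm of the pentose phosphate pathway, rose by 0.58 ± 0.06 (adjusted p = 1.49e-05) in LPS, 0.75 ± 0.06 (adjusted p = 1.48e-06) in CE and 0.92 ± 0.06 (adjusted p = 2.01e-07) in CEL, the last pair against LPS. TALDO1 and TKT belong to the non-oxidative arm, which makes no NADPH itself. TALDO1 rose by 0.17 ± 0.05 (adjusted p = 0.017) in CEL against LPS and 0.27 ± 0.05 (adjusted p = 0.004) in CEL against CE, while TKT passed none of the 4 tests. The first of these TALDO1 calls was lost in 12 of 18 alternatives, among them DESeq2, each other scaling and the fits without LPS 2, CEL 2 or CEL 3, and the second in 6. TKT was highest in CE 2, and its change in CE against LPS was 0.44 with that library and 0.09 without it.

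Of the remaining targets, PIR, pirin, a nuclear protein linked to NF-kB, rose by 0.54 ± 0.07 (adjusted p = 7.47e-05) in LPS, 0.47 ± 0.07 (adjusted p = 0.00018) in CE and 0.32 ± 0.07 (adjusted p = 0.00221) in CEL, the last pair against LPS. OSGIN1, an oxidative stress-induced growth inhibitor, was measured at 0.0831, 0 and 0 CPM in NC, 0.295, 0.189 and 0.178 CPM in LPS, 0.246, 3.51 and 0.578 CPM in CE and 1.08, 0.551 and 0.376 CPM in CEL. CE 2 was several times above every other library, and CE 1 lay within the LPS range. OSGIN1 passed in CE against LPS (2.69 ± 0.92, adjusted p = 0.031), but without CE 2 the change was 0.91 (adjusted p = 0.302), and with the batch block the adjusted p was 0.0633. Its 14 counts in LPS against 2 in NC give a ratio of 6.94, with an exact 95% interval of 1.59 to 62.9.

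The library CE 2 touched a subset of the members. It lay more than 0.5 above the mean of CE 1 and CE 3 (log2 CPM) for 10 of the 37 tested members, by 0.51 for GCLM and up to 2.91 for OSGIN1, and the other 27 lay between -0.28 and 0.29. The 10 were KEAP1, MAFG, MAFF, ABCC1, GCLC, GCLM, GSR, SRXN1, TKT and OSGIN1. Leaving out CE 2 gave 21 members higher and 5 lower in CE against LPS, beside 19 and 3 with it. An offset for GC content in each library gave 19 and 3. The part of base composition in the single values of CE 2 was not tested beyond this.

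**Figure D4:**
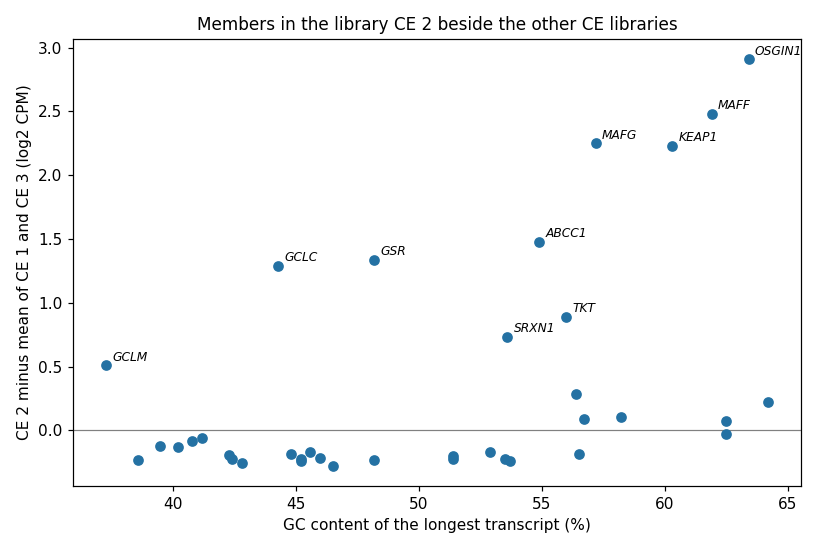
Difference of the library CE 2 from the mean of CE 1 and CE 3 (log2 CPM, vertical axis) against the GC content of the longest annotated transcript (horizontal axis), 1 point for each tested member. Names mark members more than 0.4 from 0. Most members lie between -0.28 and 0.29, and OSGIN1 is the highest at 2.91.

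Other genes of the same pathways were counted in 7 lists with 137 genes. In LPS against NC, 31 of 116 tested rose and 40 fell, with a median of -0.06, where 22.4% of all genes rose and 23.5% fell. In CE against LPS, 42 rose and 24 fell (median 0.13), where 28.8% of all genes rose and 20.7% fell. In CEL against LPS, 33 rose and 39 fell (median 0.02), where 28.7% of all genes rose and 27.2% fell. In CEL against CE, 10 rose and 35 fell (median -0.19), where 8.78% of all genes rose and 14.8% fell. These shares of all genes apply to the single lists as well, and no list was tested as a set.

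Other classical NRF2 targets rose in LPS in 11 of 28 tested cases and fell in 6. FTH1, the ferritin heavy chain that stores iron, rose by 4.54 ± 0.07 (adjusted p = 1.58e-12) from 83.8 to 1951 CPM, and HMOX1, heme oxygenase, rose by 5.75 ± 0.23 (adjusted p = 2.24e-09) from 0.474 to 25.1 CPM. In CE against LPS 14 rose and 6 fell. TRIM16L rose by 2.98 ± 0.19 (adjusted p = 2.72e-07), while CD36 fell by 1.27 ± 0.08 (adjusted p = 1.64e-07). TXNIP, an inhibitor of thioredoxin counted both here and among the thioredoxin genes, rose by 1.14 ± 0.07 (adjusted p = 1.59e-07). Its place among NRF2 targets is an assumption of the list and was not tested. In CEL against CE 4 rose and 6 fell. HMOX1 rose by 1.47 ± 0.16 (adjusted p = 8.39e-05), to a mean of 43.5 CPM in CEL. Its mean in CE, 15.7 CPM, was below the 25.1 CPM in LPS. FTH1 rose by 0.62 ± 0.06 (adjusted p = 5.3e-05). ALDH1A1 fell by 3.20 ± 0.33 (adjusted p = 5.34e-05), at a low level of 0.793 CPM in CE and 0.0814 CPM in CEL. FTH1 has many processed copies that can share its reads. Of 11 tested genes of NRF2 regulation, 3 rose and 1 fell in LPS. In CE against LPS 3 rose and 2 fell, and in CEL against CE 2 rose and 0 fell. CUL3, the ubiquitin ligase scaffold that works with KEAP1, fell by 1.10 ± 0.09 (adjusted p = 1.31e-06) in CE against LPS and rose by 0.59 ± 0.09 (adjusted p = 0.000661) in CEL against CE. BTRC and GSK3B rose by 0.60 ± 0.07 (adjusted p = 3.77e-05) and 0.55 ± 0.10 (adjusted p = 0.000589) in CE against LPS. SQSTM1, which sequesters KEAP1, rose by 1.47 ± 0.45 (adjusted p = 0.0187) in LPS, while NFE2 fell by 3.65 ± 0.33 (adjusted p = 4.21e-06).

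The other glutathione genes fell more often than they rose in LPS, 14 against 1 of 22 tested, with GPX7, a peroxidase of the endoplasmic reticulum, down by 1.36 ± 0.12 (adjusted p = 3.12e-06) and GSTM4 by 0.91 ± 0.09 (adjusted p = 9.2e-06). In CE against LPS 8 rose and 3 fell, led by GLRX, glutaredoxin, which rose by 1.48 ± 0.10 (adjusted p = 4.94e-07). In CEL against CE 1 rose and 11 fell, among them GSS, glutathione synthetase, by 0.51 ± 0.05 (adjusted p = 5.36e-05). The other thioredoxin and peroxide genes showed 3 rising and 10 falling of 19 in LPS. SOD2, the mitochondrial superoxide dismutase, rose by 4.27 ± 0.15 (adjusted p = 7.34e-10) from 49.5 to 953 CPM, while SESN3 fell by 2.22 ± 0.10 (adjusted p = 6.73e-09) and PRDX5 by 1.02 ± 0.07 (adjusted p = 3.68e-07).

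Of 18 other NADPH supply genes, 3 rose and 8 fell in LPS, and 8 fell in CEL against CE. ALDH1L2, a mitochondrial folate enzyme that yields NADPH, fell by 1.26 ± 0.04 (adjusted p = 8.81e-10) in LPS, rose by 1.37 ± 0.04 (adjusted p = 2.09e-09) in CE against LPS and fell by 0.63 ± 0.04 (adjusted p = 3.99e-06) in CEL against CE. ME2, the mitochondrial malic enzyme, fell by 0.69 ± 0.05 (adjusted p = 5.33e-07) in CE and 0.98 ± 0.05 (adjusted p = 2.66e-08) in CEL against LPS, the opposite direction to ME1. The NADPH oxidase, which spends NADPH on superoxide, rose in LPS in 6 of 7 tested genes, with CYBB, its catalytic subunit, up by 4.86 ± 0.10 (adjusted p = 8.29e-12) from 27.1 to 785 CPM. In CE against LPS 4 of the 7 rose and 0 fell, with CYBB up by 0.54 ± 0.08 (adjusted p = 0.000215) to 1144 CPM. In CEL against CE 4 of the 7 fell, among them CYBB by 0.75 ± 0.08 (adjusted p = 9.21e-05) to 679 CPM. Of 14 tested genes of selenoprotein synthesis and other selenoproteins, 6 rose and 1 fell in LPS, and 5 rose and 3 fell in CE against LPS. SEPHS2, which makes the selenium donor, fell by 0.64 ± 0.05 (adjusted p = 5.29e-07) in LPS and by 0.96 ± 0.05 (adjusted p = 2.91e-08) in CE against LPS. SELENOS rose by 0.79 ± 0.06 (adjusted p = 1.14e-06) and by 0.62 ± 0.06 (adjusted p = 6.9e-06) in the same comparisons.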

How the data were processed

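RNA was measured in 12 THP-1 libraries made, per the labels' protocols, from mRNA captured on oligo-dT beads. The authors deposited estimated counts per gene (29.3% of nonzero values are not whole within 0.005) and TPM on hg38, per the submitters' processing notes for the build. A deposited table of FPKM was not used. For the aligner, the counter, its strand setting and the gene models the entry is: not given in the sources used here. Columns were matched to groups by name. The CE columns name only a treatment and were assigned as the group left over, a match on which each CE value depends, and 0 columns were left over.

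Estimated counts were rounded, filtered with filterByExpr (14065 genes kept), scaled with TMM and fitted with 4 groups in 1 quasi-likelihood model in edgeR 4.0.16 (R 4.3.3), with two-sided tests adjusted by Benjamini-Hochberg over all tested genes. Dispersion was 0.0405 in common over genes, with 8 residual degrees of freedom and a prior of 2.93. The fit was tested on simulated data in which no library stood apart from its group, so that test says nothing about the libraries that did so here. CPM are counts scaled by the TMM-adjusted library size. The standard error is the log2 change divided by the square root of F. Nothing in the labels says that the 3 libraries of a group came from separate cultures, so the p-values reflect the spread among these libraries alone, which may be technical. Counts give no molecular identifiers, and intervals cover counting error only.

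The labels give each replicate number as a batch, so numbers pair libraries by label. Same-numbered libraries correlated above 0.1 in 6 of 18 pairs over 7460 genes (-0.86 to 0.73, median -0.19), and 1 library correlated best with its own number. Alternatives were other scalings, no filter, DESeq2 1.42.0, limma 3.58.1 on log2 TPM, a batch block, the 2 groups alone, each replicate left out and, chosen after seeing the data, a GC offset and leaving out NC 3, LPS 1 and CE 2. Gene positions, pseudogenes and GC content come from GENCODE v29.

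The members and lists were chosen with earlier results of these data known. Values in every library are given for members called and changed at least 2-fold in at least 1 of the 4 main comparisons. They are also given for 13 regulators and enzymes fixed by name. Other members are given by role, and up to 4 other pathway genes per list and comparison were eligible by smallest p.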

Additional observations from a re-analysis of the deposited data

How the results depend on the processing

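One called member changed direction: in CE against NC, GSTP1 turned to -0.13 with upper-quartile factors and -0.0042 with library size alone. Of members not called, TALDO1 in CE against NC turned to -0.25 and -0.13 with the same settings and passed there. KEAP1 in CE against LPS turned to -0.97 with NC 3, LPS 1 and CE 2 left out together, and also passed. Other members not called changed sign without passing in the new direction. For MAFF in CE against LPS the alternatives ran from -1.23 to 1.28, with no adjusted p under 0.271. With the batch number as a replicate block, 15 members rose and 5 fell in LPS against NC, 18 and 3 in CE against LPS, 15 and 5 in CEL against LPS, and 5 and 6 in CEL against CE. In these 4 comparisons the block changed the call of MAFF in LPS against NC, OSGIN1 in CE against LPS, and AKR1A1 and AKR1B1 in CEL against CE, and of no other member called. All alternatives left 13 of 21 calls in LPS against NC, 7 of 22 in CE against LPS, 11 of 20 in CEL against LPS, 0 of 13 in CEL against CE, 17 of 28 in CE against NC and 16 of 29 in CEL against NC. The cause of these losses was not tested.

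Fits that changed both the values, to the deposited TPM, and the test, to limma, gave in no case more calls than the count fit, and the parts of these choices cannot be told apart. For many members the TPM of NC 3 and LPS 1 lay below their group mates. With log2(TPM + 1) the log2 changes of all genes shifted by a median of 0.143 in LPS against NC and 0.247 in CEL against NC. With limma on log2(TPM + 1), log2(TPM + 0.1) and log2(TPM + 1) without a filter, in that order, members higher in CE against LPS numbered 9, 10 and 6. Members lower numbered 1, 1 and 1 in LPS against NC, 3, 3 and 3 in CEL against LPS, 1, 1 and 1 in CE against NC, 2, 2 and 2 in CEL against NC and 1, 1 and 0 in CEL against CE, where members higher were 0 in each. Without the filter, 1 member was lower in CE against LPS and 8 higher in CEL against LPS. All genes lower numbered 893, 772 and 704 in LPS against NC, 1344, 1340 and 929 in CE against LPS, 1936, 1980 and 1533 in CEL against LPS, 157, 142 and 83 in CEL against CE, 2070, 2000 and 1886 in CE against NC, and 2477, 2453 and 2441 in CEL against NC. All genes higher numbered 2242, 2205 and 1599 in CE against LPS and 109, 83 and 96 in CEL against CE. In LPS against NC 2070 were higher with a pseudocount of 1 and 1642 without the filter, and in CEL against LPS 2679 without the filter.

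With upper-quartile factors 6 members fell in CE against LPS, 8 in CEL against LPS and 8 in CE against NC, and with library size alone 6 in CE against LPS. Without the low-count filter in edgeR, 1956 genes were lower in LPS against NC, and 463 genes and 1 member were higher in CEL against CE. A fit of CEL and CE alone gave 886 genes lower, with 3 members higher and 3 lower. The GC offset gave 5 members lower in CEL against CE. Leaving out 1 replicate at a time gave 3 to 6 members lower in CE against LPS, with 6 without CE 1 and 5 without CE 2. In CEL against CE it gave 3 to 10 members lower (4 without CE 1, 10 without CE 2, and 3 without CE 3, CEL 1 or CEL 2) and 1098 to 2459 genes lower.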
